A study of Mus musculus with 16 samples.

Results

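The genes described here build, supply or move cilia. They are the 43 of 22206 tested probe sets on the mouse Clariom S array whose symbol begins with Ift, Bbs, Dnah, Dnai, Rsph or Tctn and a number, or is Deup1. Each of the 43 genes had 1 probe set. The transport class held 22 genes, 14 of them Ift genes and 8 Bbs genes. The motility class held 17 genes, 10 Dnah and 7 Rsph, and 0 probe sets carried a Dnai symbol. Tctn1, Tctn2, Tctn3 and Deup1 stood apart from both classes.

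A cilium has no ribosomes, so its proteins are carried in and out along the microtubules by intraflagellar transport. Trains of IFT-A and IFT-B complexes run outward with kinesin and return with dynein. The BBSome, a coat made of Bbs proteins, rides these trains and moves membrane receptors. Olfactory sensory neurons carry many cilia on their dendritic knob and hold the odorant receptors there, and in mammals these cilia are described as immotile and without dynein arms. Beating cilia, as on the multiciliated cells of the neighbouring respiratory epithelium, need dynein heavy chains (Dnah) to slide the microtubules and radial spokes (Rsph) to control them.

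The arrays measured mRNA of cells sorted from the olfactory mucosa of C57BL/6 mice aged 7 to 12 weeks, females and males alike. In the assay named in the series title, mice carry tau-GFP driven from S100a5, a gene that olfactory neurons transcribe when active, and dissociated cells are sorted on GFP after exposure to an odorant. All 24 mice spent 40 h singly in chambers with clean air at 3.1 L/min. From 26 h on, one arm received pulses of undecanal, a fatty aldehyde, and the other filtered air (vehicle), each for 10 s every 20 min. Cells of 3 mice were pooled, so each agent had 4 pools and each pool gave an array titled GFP- and one titled GFP+, which makes 16 arrays in 4 groups of 4. The groups are vehicle titled GFP-, vehicle titled GFP+, undecanal titled GFP- and undecanal titled GFP+.

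In 16 of 16 samples the GFP sign of the title is the reverse of the sign among the characteristics, so fractions are named by title throughout. S100a5 read lower in titled GFP+ in every pool: vehicle arrays titled GFP- lay between 16.37 and 16.91 and those titled GFP+ between 15.54 and 15.84, and undecanal arrays between 16.45 and 17.06 and between 15.62 and 15.96. By the characteristics, S100a5 is thus higher in the GFP+ array of every pool. Which label is right was not tested. If the characteristics hold, every fraction difference below turns sign, and the undecanal effect within a fraction does not. The fractions also differed in their cell types: all 10 measured immune genes, 6 of 6 microvillar, 5 of 7 cell cycle, 5 of 8 sustentacular and 7 of 11 immature neuron genes passed as higher in titled GFP+ vehicle arrays. All 18 mature neuron genes lay below 0 there, with a median difference of -0.21, and 5 passed as lower. Of all probe sets 8.82% passed as higher in this comparison, 5.12% passed as lower and 65.5% lay below 0. Within groups, r between arrays was 0.989 to 0.993, and the deposited log2 values ran from 1.67 to 19.7. Precision is limited by the number of arrays. In sorted bulk RNA, fewer cells of a type and less RNA per cell cannot be told apart.

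Nearly all transport genes were measured above background in all 4 groups, while the motility genes split into a set above background and a set below it. A probe set is called above background where a group mean exceeded log2 4.80, the 95th percentile of 358 probe sets of vomeronasal and bitter taste receptors. By this measure 35 of the 43 genes (81.4%) lay above background in at least 1 group and also in all 4, against 64.8% of all probe sets in at least 1. All 14 Ift genes and 7 of the 8 Bbs genes did. Bbs12, a chaperonin-like protein that helps to assemble the BBSome, was the exception, with means of 3.98 ± 0.398, 3.48 ± 0.184, 3.95 ± 0.171 and 3.63 ± 0.343 (SD, n = 4 each) in vehicle titled GFP-, vehicle titled GFP+, undecanal titled GFP- and undecanal titled GFP+. Its partner Bbs10 passed the background in every group, with single arrays between 5.38 and 6.47.

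Among the Ift genes, Ift80, an IFT-B subunit and the transport gene with the highest mean, averaged 14.45 ± 0.185 in vehicle titled GFP-, 14.17 ± 0.290 in vehicle titled GFP+, 14.46 ± 0.326 in undecanal titled GFP- and 14.21 ± 0.0312 in undecanal titled GFP+ (SD, n = 4 each). Values of different probe sets are not compared as mRNA amounts, since each probe set has its own response. The transport genes had a median within-group SD of 0.213, against 0.283 over all probe sets and 0.273 over those above background. Motility genes above background were close to this, with a median of 0.22. Bbs4, a BBSome subunit, had the smallest SD of the transport class, 0.0995.

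Of the motility class 10 of 17 genes were above background. The radial spoke genes made up 6 of these, Rsph1, Rsph3a, Rsph3b, Rsph4a, Rsph9 and Rsph14, and Rsph6a, whose product is known from the sperm flagellum, lay below. Rsph3a and Rsph3b are close copies of each other, so their probe sets may share signal. Of the 10 dynein heavy chains only 4 were above background, Dnah2 and Dnah7a of the inner arm and Dnah9 and Dnah11 of the outer arm. Dnah7a has near-identical copies in the mouse and is uncertain for the same reason. Dnah5, the outer arm heavy chain of respiratory cilia, had vehicle titled GFP- arrays at 4.34, 4.36, 4.41 and 4.52 and vehicle titled GFP+ arrays at 4.57, 4.09, 3.23 and 4.07. These lie under the background level and overlap between fractions. Dnah1, Dnah6, Dnah8, Dnah10 and Dnah17 were below background in all groups too. The counts of 21 transport and 10 motility genes above background in at least 1 group were the same with the 90th or the 99th percentile as background. Above it in all 4 groups were 35 of the 43 genes with the 90th and 33 with the 99th (log2 5.78), where Bbs10 and Deup1 dropped out.

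**Figure D1:**
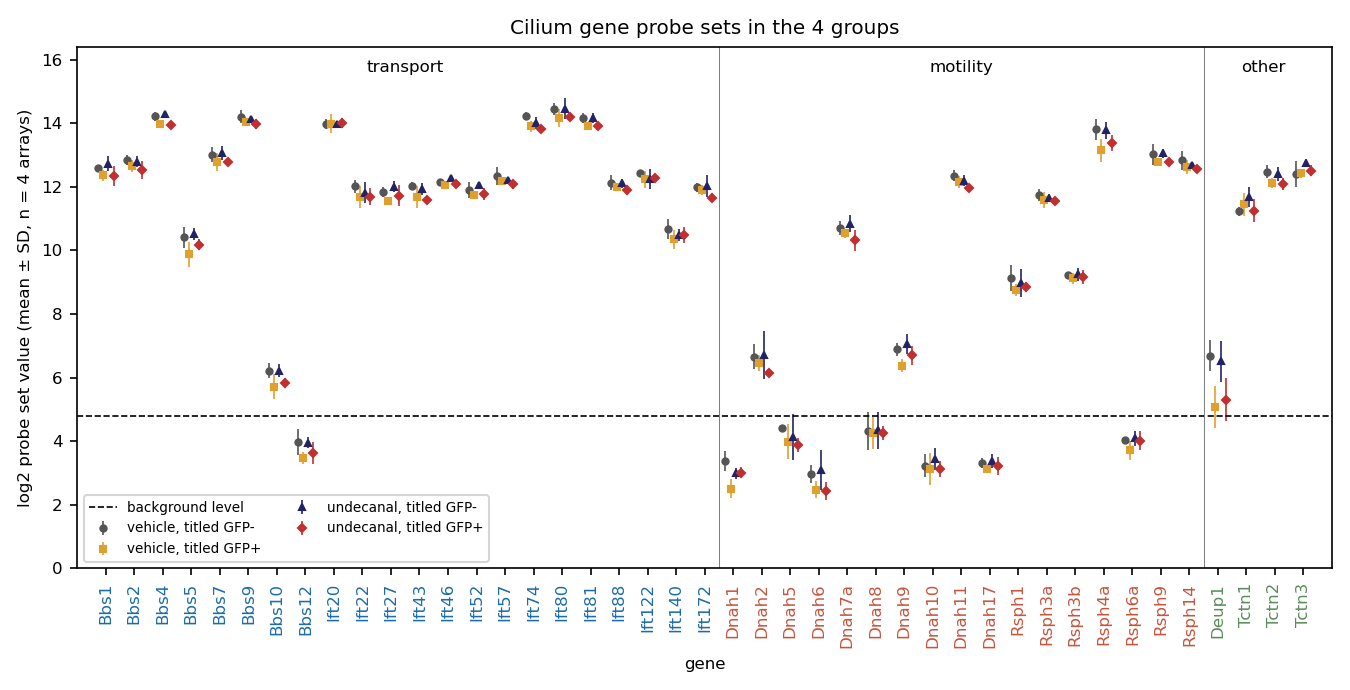
Mean log2 value ± SD (n = 4 arrays) of the 43 genes in the 4 groups. The dashed line is the background level of log2 4.80, and Bbs12, 6 dynein heavy chains and Rsph6a lie under it in every group.

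Genes of multiciliated respiratory cells, whose cilia beat, were read beside the motility class. Of 17 such genes 11 or 12 were above background in each group, and the summed level of the list ran from log2 16.02 to 16.46 in vehicle titled GFP-, 16.02 to 16.30 in vehicle titled GFP+, 16.14 to 16.38 in undecanal titled GFP- and 15.95 to 16.33 in undecanal titled GFP+. Mcidas, the switch for multiciliation, averaged 3.67 and 3.49 in the vehicle fractions titled GFP- and GFP+, and Sntn, a protein of the ciliary tip, 4.10 and 4.07, all below background. Cdhr3, Ccdc153 and Tekt2 were below background in every group as well. Other genes of the list were well above it: Cfap126 averaged 15.66 in vehicle titled GFP-, Capsl 13.15, Pifo 12.60 and Tekt1 11.27. The summed level was taken over unlogged values, so in vehicle arrays Cfap126 weighs most in it. Between fractions the list had a median difference of -0.19 with 0 of 17 genes passing in vehicle pools and -0.24 with 1 passing as lower, Ccno, in undecanal pools. Of all probe sets 13.9% passed in vehicle pools, and 4.36% passed as lower in undecanal pools. The part of such cells in the values of the motility genes was not tested.

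The promoters show a feature that the selection by name did not use. RFX transcription factors are master regulators of ciliary genes and bind a palindromic X-box. The RefSeq promoter windows of assembly GRCm38.p6, 250 bases before to 50 after a start site, covered 38 of the 43 genes with 40 promoters. The X-box palindrome was searched as an arm GTNNCC, any 2 bases (N is any base), and the reverse complement of the arm, GGNNAC, a pattern of 14 bases that reads the same on both strands. It occurred in 9 of the 40 promoters (22.5%), against 618 of the 32851 promoters searched (1.88%), all of the same length. Promoters of 1 chromosome were left out of the search. Among transport promoters 5 of 19 (26.3%) held it and among motility promoters 1 of 16 (6.25%), that of Rsph9. The genes were Bbs1, Bbs4, Bbs7, Deup1, Ift22, Ift57, Rsph9, Tctn1 and Tctn2.

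A shorter RFX motif, GTTGCC on either strand, which can lie inside the palindrome, was in 15 of the 40 promoters (37.5%) against 12.5% of all. GTAAACA on either strand, a forkhead motif of the type FOXJ1 binds, was in 1 (2.5%), Dnah17, against 3.65% of all. Promoters of neighbouring or related genes are not independent and no test was made. A match is a description of the letters, not evidence of binding.

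Stretches around the palindrome are printed for 5 of these genes, with the palindrome in capitals. The fixed bases recur because the pattern selected them. The middle bases are AT in both Deup1 and Tctn2, and GT in both Ift57 and the downstream copy of Ift22. The Deup1 stretch is the whole 250 bases before its start site, printed because Deup1 has the largest fraction difference of the 43 genes.
Deup1, chr9:15627847-15628096, minus strand: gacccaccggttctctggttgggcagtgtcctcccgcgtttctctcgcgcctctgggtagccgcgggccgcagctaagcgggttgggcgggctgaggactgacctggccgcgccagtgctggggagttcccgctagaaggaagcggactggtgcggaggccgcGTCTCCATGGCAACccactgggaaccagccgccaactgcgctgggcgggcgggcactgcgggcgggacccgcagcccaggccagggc
Ift57, chr16:49699192-49699235, plus strand: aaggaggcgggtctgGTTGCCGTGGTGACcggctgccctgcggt
Bbs7, chr3:36613482-36613525, minus strand: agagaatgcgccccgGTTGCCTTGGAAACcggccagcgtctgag
Ift22, upstream copy, chr5:136908072-136908115, plus strand: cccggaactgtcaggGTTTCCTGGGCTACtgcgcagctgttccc
Ift22, downstream copy, chr5:136908102-136908145, plus strand: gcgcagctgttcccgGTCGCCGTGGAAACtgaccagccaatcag
Tctn2, chr5:124598672-124598715, plus strand: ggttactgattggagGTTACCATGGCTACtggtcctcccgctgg
Ift57 and Bbs7 hold GTTGCC as the left arm, and Ift22 carries 2 palindromes. The first base of the palindrome lay 87 bases before the start site in Deup1 and in Ift57, 121 in Bbs7, 62 in Tctn2, and 63 and 33 in Ift22. Palindromes that reach or lie past the start site are not printed. Counted from that site, their first base was at -6 in Rsph9, 1 in Bbs1, 23 in Bbs4 and 36 in Tctn1.

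Among the 43 genes, the sort fractions of vehicle pools differed most in Deup1. It encodes the core protein of the deuterosome, a body that builds many centrioles at once. Its within-group SD of 0.624 was the largest of the 43 genes, and 97.4% of all probe sets had a smaller one. Arrays titled GFP- of pools 1 to 4 read 6.92, 6.97, 6.90 and 5.97, and arrays titled GFP+ read 5.27, 5.77, 4.19 and 5.03. All 4 arrays titled GFP+ lay below all 4 titled GFP-, and the array of pool 3 titled GFP+ lay under the background level. Subtracting titled GFP- from titled GFP+ gave a log2 difference of -1.63 (SE 0.383, limma adjusted p = 0.00629), with single pools from -2.72 to -0.94. Without vehicle pool 3 the difference was -1.26 and no longer passed (limma adjusted p = 0.066).

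The motility class followed with 2 genes that fell. Rsph4a, a radial spoke head protein, read 13.78, 14.20, 13.40 and 13.88 in vehicle arrays titled GFP- and 12.73, 13.32, 13.01 and 13.56 in those titled GFP+. The array titled GFP+ was lower in each of the 4 pools, although the groups overlapped. The difference was -0.66 (SE 0.209, limma adjusted p = 0.042, 1.58-fold lower). The call ended without vehicle pool 1 (-0.53, limma adjusted p = 0.206) or 2 (-0.59, limma adjusted p = 0.149), without undecanal pool 2 or 3 (limma adjusted p = 0.063 and 0.0582), when just the vehicle arrays were fitted (limma adjusted p = 0.0773), and with the arrays centred on mature neuron genes (-0.40, limma adjusted p = 0.223).

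Dnah1, an inner arm heavy chain, read 2.95, 3.67, 3.39 and 3.52 in arrays titled GFP- and 2.63, 2.77, 2.56 and 2.10 in those titled GFP+. The groups did not overlap, and the difference was -0.87 (SE 0.178, limma adjusted p = 0.00204). All 16 arrays read below the background level for this probe set, so no fold is given.

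Over the 43 genes, 3 fell and 0 rose in this comparison, where 13.9% of all probe sets passed, 5.12% as lower and 8.82% as higher. The groups did not overlap for 6 of the 43, Deup1, Dnah1, Dnah6, Dnah9, Ift27 and Ift74, all lower, beside 8.26% of all probe sets lower and 9.83% higher. In the deposited values 40 of 43 differences were below 0, against 65.5% of all probe sets. With arrays centred on mature neuron genes 10 of the 22 transport and 7 of the 17 motility genes were below 0. That centring moves all probe sets alike, so the 65.5% does not apply to these counts. Summed immune genes ran from log2 7.93 to 8.85 in vehicle arrays titled GFP- and from 17.87 to 18.62 in those titled GFP+, and summed mature neuron genes from 21.80 to 21.87 and from 21.66 to 21.73. The part of this cell makeup in the differences was not tested.

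None of the 22 transport genes passed in vehicle pools by limma, while 6 had an unadjusted p under 0.05, as did 5736 of all 22206 probe sets (25.8%), and 21 lay below 0. Their median was -0.24, or 0.02 with arrays centred on mature neuron genes, and the range was -0.53 to 0.02, beside a median of -0.11 over all probe sets. The 358 vomeronasal and bitter receptor probe sets, which set the background, had a median of -0.28. The 3 IFT-A genes had a median of -0.32, the 11 IFT-B genes -0.15, the 6 BBSome genes -0.23 and the 2 chaperonin-like genes -0.50. The lowest was Bbs5, a BBSome subunit, at -0.53 (SE 0.2, limma adjusted p = 0.0944), with arrays titled GFP- at 10.40, 10.25, 10.11 and 10.87 and titled GFP+ at 9.63, 9.53, 9.93 and 10.43. With the pool as a block, random or fixed, Bbs5 passed (limma adjusted p = 0.0477 and 0.028), and so did Dnah9 (limma adjusted p = 0.0394 and 0.0308). The transport count was also 1 without vehicle pool 3 (Bbs12) and 2 without vehicle pool 4 (Bbs5 and Bbs10).

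Other transport genes lay near 0. Ift20, the IFT-B subunit that also sits at the Golgi, read 13.83, 13.88, 14.19 and 13.98 in arrays titled GFP- and 13.60, 14.06, 14.34 and 13.96 in those titled GFP+. The fractions overlapped, and the difference was 0.02 (SE 0.155), with a 95% interval from -0.31 to 0.35. Ift88, an IFT-B core subunit whose loss abolishes cilia, differed by -0.13 (SE 0.14), with arrays titled GFP- at 12.15, 11.87, 12.43 and 12.08 and titled GFP+ at 11.97, 11.94, 12.07 and 12.03. Over the class the 95% intervals reached from -0.95 to 0.35.

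All 17 motility genes lay below 0 in vehicle pools as deposited, with a median of -0.21 (0.06 with mature neuron centring) and a range from -0.87 to -0.06. The 7 radial spoke genes had a median of -0.24 and the 5 outer and 5 inner arm genes -0.21 and -0.20. The 10 motility genes above background had the same median of -0.21. Dnah9, an outer arm heavy chain, read 6.77, 6.66, 7.08 and 7.05 titled GFP- and 6.24, 6.41, 6.65 and 6.21 titled GFP+, without overlap, and did not pass (-0.51, limma adjusted p = 0.0788). Without undecanal pool 1 it passed (limma adjusted p = 0.0411) and the class count was 3. The tectonics of the transition zone gate went different ways, Tctn2 at -0.35 (limma adjusted p = 0.157), Tctn3 at 0.03 and Tctn1 at 0.22, and none passed.

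**Figure D2:**
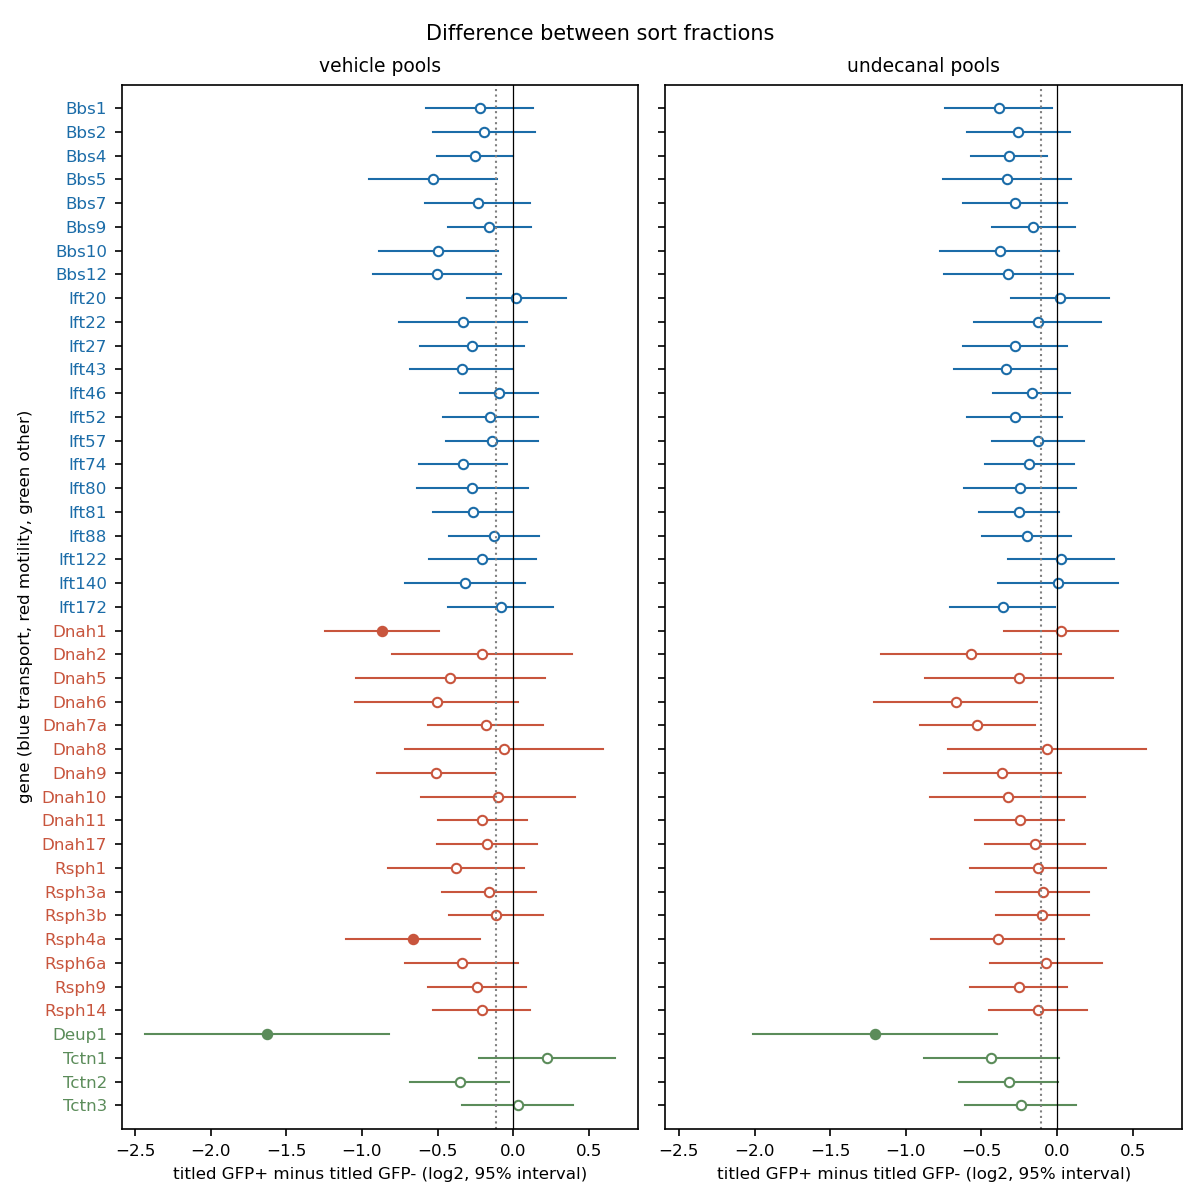
Difference between fractions (titled GFP+ minus titled GFP-, log2, with 95% interval) of each gene in vehicle and undecanal pools. Solid points pass a limma adjusted p of 0.05 (Deup1, Rsph4a and Dnah1 in vehicle pools, Deup1 in undecanal pools), and the dotted line is the median of all probe sets, -0.11 in both.

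In undecanal pools 1 of the 43 genes passed, again Deup1, beside 13.2% of all probe sets in either direction, 4.36% as lower and 8.83% as higher. Of the 43 differences 39 were below 0, beside 65.2% of all. Arrays titled GFP- of pools 1 to 4 read 7.11, 5.68, 6.29 and 6.96 and those titled GFP+ 6.16, 4.82, 4.71 and 5.54. Each pool was lower in titled GFP+, with differences from -1.58 to -0.86, although the groups overlapped. The array of pool 3 titled GFP+ lay under the background level, and the group mean of 5.31 lay close above it. The difference was -1.20 (SE 0.383, limma adjusted p = 0.046), and as in vehicle pools no fold is given so near to background. The call ended without any one of the undecanal pools 1 to 4 (limma adjusted p = 0.0544, 0.0545, 0.166 and 0.137), without vehicle pool 1 (limma adjusted p = 0.0658), with array weights (limma adjusted p = 0.0632), with only the groups compared (limma adjusted p = 0.0635) and with mature neuron centring (limma adjusted p = 0.0961).

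The other genes that passed in vehicle pools did not pass here. Rsph4a read 14.15, 13.75, 13.54 and 13.66 titled GFP- and 13.62, 13.49, 13.41 and 13.01 titled GFP+, lower in 4 of 4 pools by a mean difference of -0.39 (SE 0.209, limma adjusted p = 0.273). Dnah1 read 3.11, 3.07, 2.74 and 3.05 and then 2.76, 3.17, 3.00 and 3.14, a difference of 0.02 (SE 0.178, limma adjusted p = 0.958) with 3 of 4 pools higher. Its sign turned with median centring (-0.33) and without undecanal pool 2 or 3.

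For the transport class 0 of 22 genes passed in undecanal pools, 3 had an unadjusted p under 0.05, where 5346 of all 22206 probe sets did (24.1%), and 19 lay below 0, with a median of -0.25 and a range from -0.39 to 0.03. Bbs4 read 14.38, 14.34, 14.24 and 14.17 titled GFP- and 14.03, 13.87, 13.98 and 13.98 titled GFP+. These groups did not overlap, and the difference was -0.32 (limma adjusted p = 0.0945). In vehicle pools Bbs4 read 14.37, 14.04, 14.23 and 14.23 and then 14.02, 13.87, 13.93 and 14.04, which overlap by a narrow margin. The genes without overlap here were Bbs4, Bbs5, Bbs9, Ift81, Rsph9 and Rsph14, all lower, beside 7.83% of all probe sets lower and 9.43% higher, and none of the 6 was without overlap in vehicle pools.

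Of the motility genes 0 of 17 passed in undecanal pools, 2 had an unadjusted p under 0.05 beside the same 24.1% of all probe sets, and 16 lay below 0, with a median of -0.25 and a range from -0.67 to 0.02. All probe sets had a median of -0.11 and the receptors that set the background -0.24. Dnah7a, an inner arm heavy chain, read 10.67, 11.10, 11.04 and 10.58 titled GFP- and 10.06, 10.08, 10.78 and 10.36 titled GFP+, a difference of -0.53 (limma adjusted p = 0.0653) in overlapping groups. With the pool as a random block Dnah7a passed (limma adjusted p = 0.0376), and with the pool as a fixed block Dnah6 passed in its place (-0.67, limma adjusted p = 0.0174), a probe set below background in all groups. The motility count was also 1 without undecanal pool 1 (Dnah2) or 3 (Dnah7a). All 3 tectonics lay below 0, at -0.43, -0.32 and -0.24 for Tctn1, Tctn2 and Tctn3, and none passed.

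**Figure D3:**
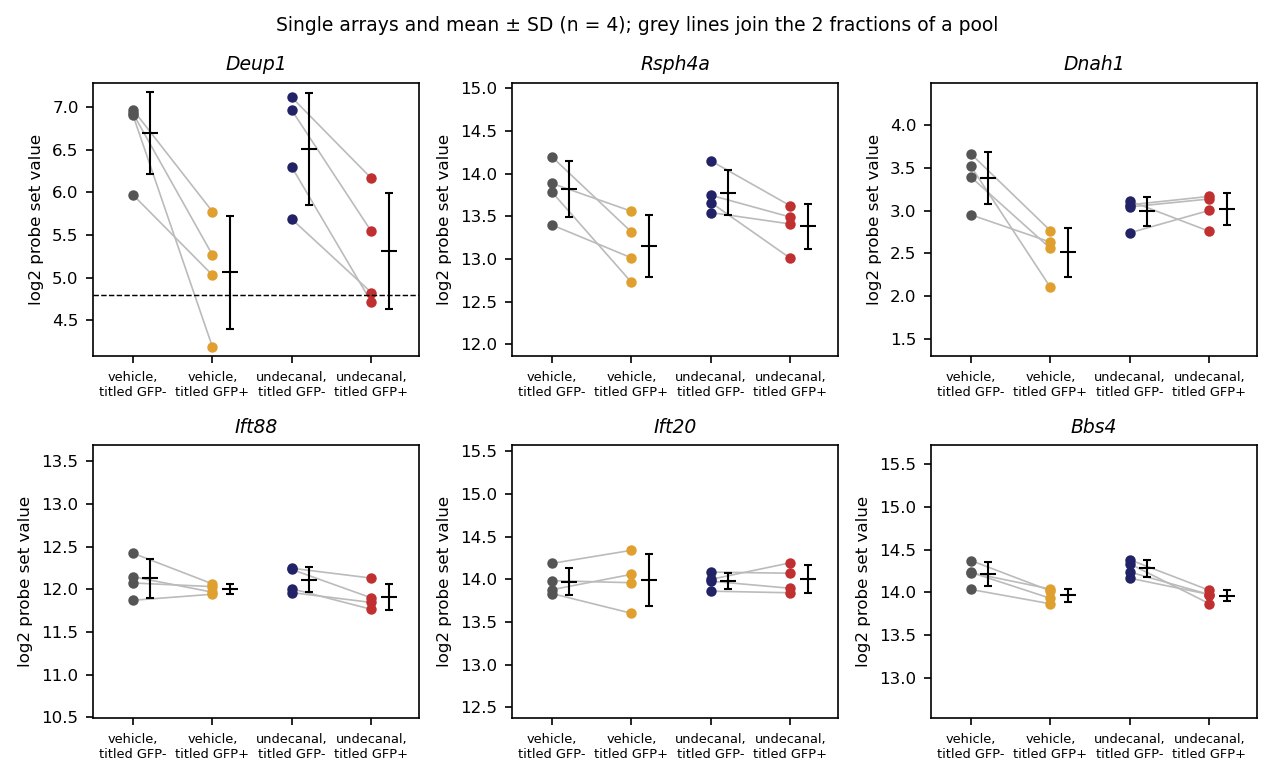
Log2 value of each array for Deup1, Rsph4a, Dnah1, Ift88, Ift20 and Bbs4, with the group mean ± SD (n = 4) and grey lines joining the fractions of a pool. Deup1 is lower in titled GFP+ in all 8 pools, while Ift20 is higher in some pools and lower in others. The dashed line for Deup1 is the background level of log2 4.80.

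The direction of the 2 classes rested on how arrays were scaled. Centring each array on its own median moved all differences by -0.36, so that 21 of 22 transport and 14 of 17 motility genes passed as lower with vehicle, and 19 and 12 of them with undecanal. In the same setting 50.6% and 50.1% of all probe sets passed as lower. Centring on mature neuron genes moved the differences by 0.27 and 0.23, and the class medians became 0.02 and 0.06 with vehicle and -0.02 and -0.01 with undecanal. No transport gene passed there by limma, and Dnah1 was the 1 motility gene that did, in vehicle pools. The median of the mature neuron list itself was -0.21 and -0.20 in the deposited values, next to -0.24 and -0.25 for transport and -0.21 and -0.25 for motility.

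With quantile normalization the transport medians were -0.20 and -0.23 and the motility medians -0.19 and -0.21. Bbs10 passed in both agents (-0.81 and -0.73, limma adjusted p = 0.0041 and 0.00875), and the motility class had 3 and 2 genes passing. The share of all probe sets passing with quantile normalization is not given here, so the counts are not read as a class result. Deup1 kept its sign under all 3 scalings, from -1.98 to -1.36 with vehicle and from -1.56 to -0.97 with undecanal. The 3 scalings moved the share of lower calls among all probe sets between 2.01% and 50.6% in vehicle pools.

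**Figure D4:**
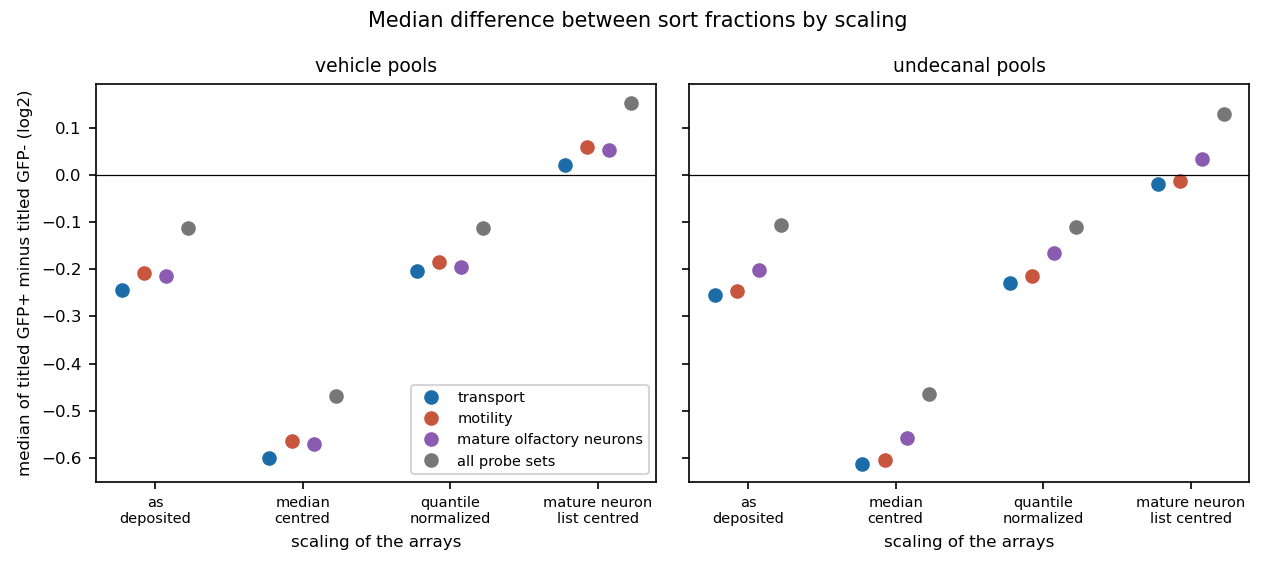
Median fraction difference (titled GFP+ minus titled GFP-, log2) of transport genes, motility genes, mature neuron genes and all probe sets under 4 scalings of the arrays. Centring moves all genes by the same amount, so the gaps between lists do not change with it, and in vehicle pools both cilium classes move across 0 with mature neuron list centring.

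The rest of the ciliary machinery was read from 7 lists of genes outside the name rule. Beside the counts below, 5.12% of all probe sets passed as lower and 8.82% as higher with vehicle. With undecanal these shares were 4.36% and 8.83%. Of 10 other IFT subunits 1 passed as lower in vehicle pools, Ttc30b, a partner of the IFT-B complex (-0.50, limma adjusted p = 0.0459), and 2 in undecanal pools, Ttc30b (-0.53, limma adjusted p = 0.0369) and Cluap1, also of IFT-B (-0.59, limma adjusted p = 0.00782). Of 9 other BBS genes 2 passed as lower in vehicle pools, Wdpcp (-0.61, limma adjusted p = 0.0163) and the BBSome subunit Ttc8 (-0.56, limma adjusted p = 0.0369), and 0 in undecanal pools. None of 12 cilium motor genes and none of 15 transition zone genes passed in either by limma. The motor list had medians of -0.28 with vehicle and -0.19 with undecanal and the transition zone list of -0.31 and -0.29. An unadjusted p under 0.05 was found for 3 and 2 motor genes and for 6 and 5 transition zone genes, beside 25.8% and 24.1% of all probe sets. The calls of Wdpcp, Ttc8, Ttc30b and Cluap1 ended with mature neuron centring. Without single pools the vehicle calls ended for Ttc30b (any vehicle pool, undecanal pool 3 or 4, limma adjusted p up to 0.184), Ttc8 (any vehicle pool, undecanal pool 2, up to 0.172) and Wdpcp (vehicle pool 2 or 3, up to 0.116). The undecanal calls ended for Ttc30b (any pool but vehicle pool 1, limma adjusted p up to 0.161) and Cluap1 (undecanal pool 3, 0.0743).

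On the motility side, 1 of 33 other axonemal genes fell in vehicle pools, Ropn1l, a radial spoke protein (-0.91, limma adjusted p = 4e-04). In undecanal pools 1 fell, Tcte1, of the nexin-dynein link (-0.76, limma adjusted p = 0.00545). Of all probe sets 5.12% passed as lower with vehicle and 4.36% with undecanal, so the count of 1 in 33 is not read as a class result. Of 13 dynein arm assembly factors Spag1 fell in both agents (-0.53 and -0.51, limma adjusted p = 0.0103 and 0.0155). Dnaaf3 rose in undecanal pools (0.69, limma adjusted p = 0.0328), from a mean of 4.58, below background, to 5.27. Single pools ended the calls of Spag1 (vehicle pool 2, and undecanal pool 1 or 2, limma adjusted p up to 0.0949), Tcte1 (undecanal pool 1, 0.0536) and Dnaaf3 (undecanal pool 2, 3 or 4, up to 0.14), and Dnaaf3 also with median centring (limma adjusted p = 0.145) or quantile normalization (limma adjusted p = 0.125). Mature neuron centring ended the Spag1 and Tcte1 calls (limma adjusted p up to 0.263). Of 21 genes for centriole amplification and its regulators, 2 rose and 1 fell in vehicle pools, beside 8.82% and 5.12% of all probe sets. Myb rose by 4.39 (SE 0.474, limma adjusted p = 1.81e-06) and Stil, a centriole duplication factor, by 2.77 (SE 0.137, limma adjusted p = 8.97e-11). Their means in vehicle titled GFP- were 4.75 and 4.57, below background, so no fold is given. Myb and Stil also act in dividing cells. In the same comparison the list median was 1.72 for cell cycle genes, 8.48 for immune genes and 3.04 for microvillar genes. For mature neuron genes it was -0.21. The part of any cell type in the Myb and Stil differences was not tested.

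Rfx4, a transcription factor of the RFX family, fell by 1.45 (SE 0.191) with vehicle, with a limma adjusted p of 2.11e-05, and by 1.32 (SE 0.191) with undecanal, with a limma adjusted p of 5.9e-05. In undecanal pools 3 genes of this list rose, among them Sass6 of the centriolar cartwheel (0.61, limma adjusted p = 0.0201), and 2 fell. Of all probe sets 8.83% passed as higher and 4.36% as lower in undecanal pools. Deup1 was lower in the same arrays in which Myb and Stil were higher. The Sass6 call ended without undecanal pool 1 or 2 and with median centring (limma adjusted p up to 0.196), while Myb, Stil and Rfx4 passed in every alternative run.

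Undecanal itself moved none of the 43 genes past the threshold. In arrays titled GFP+ 0 of 43 genes passed by limma, where 1 of all 22206 probe sets did (0.0045%), and 1 gene had an unadjusted p under 0.05, where 603 of all probe sets did. Transport had a median difference, undecanal minus vehicle, of 0.01 with a range from -0.24 to 0.31, and motility 0.01 with a range from -0.32 to 0.50. The smallest p belonged to Dnah1 (0.50), followed by Rsph6a (0.31), Dnah9 (0.32), Bbs5 (0.31) and Ift172 (-0.24), each with a limma adjusted p of 0.999. Deup1 differed by 0.25, with a 95% interval from -0.56 to 1.05.

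In arrays titled GFP- 0 of 43 passed by limma, as did 0 of all probe sets (0%), and 2 genes had an unadjusted p under 0.05, where 914 of all probe sets did. These were Dnah1 (-0.39) and Tctn1 (0.46), followed by Tctn3 (0.36), Ift74 (-0.23) and Ift122 (-0.21), each with a limma adjusted p of 1. The range was -0.23 to 0.17 for transport and -0.39 to 0.22 for motility. Deup1 differed by -0.18, with a 95% interval from -0.99 to 0.63. No gene of the 43 had undecanal arrays that were all above or all below the vehicle arrays in either fraction. Of all probe sets 1.11% were wholly above and 0.761% wholly below in titled GFP+, and 1.18% and 1.02% in titled GFP-.

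Precision differed between genes. The lowest and highest interval bounds of any gene were -0.59 and 0.73 for transport in titled GFP+, -0.62 and 0.53 for transport in titled GFP-, and -0.92 and 0.88 and then -0.89 and 0.73 for motility. The interval of each gene is drawn in the plot of undecanal differences.

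**Figure D5:**
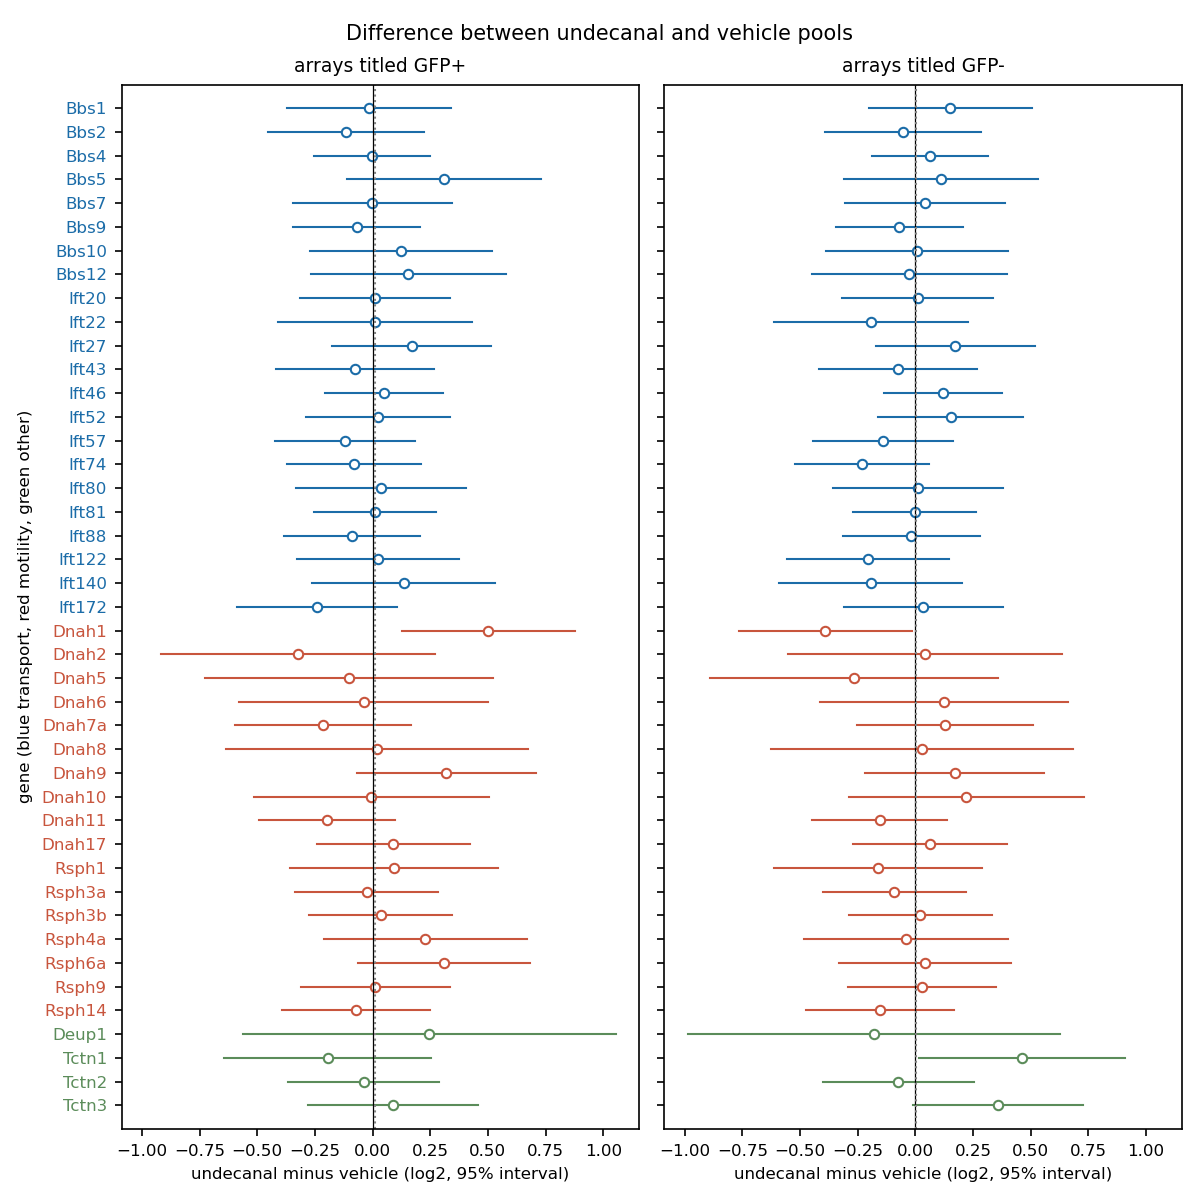
Difference between undecanal and vehicle pools (undecanal minus vehicle, log2, with 95% interval) of each gene in arrays titled GFP+ and GFP-. All points are open because none of the 43 genes passed, and the intervals leave out 0 for Dnah1 in both fractions and for Tctn1 in titled GFP-.

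Whether undecanal changed the difference between fractions was tested as an interaction, and 0 of 43 genes and 0 of all probe sets (0%) passed by limma. An unadjusted p under 0.05 was found for 2 of the 43 and for 584 of all. Dnah1 had an interaction of 0.89 (SE 0.252, limma adjusted p = 1) with a 95% interval from 0.36 to 1.42, and Tctn1 of -0.66 (SE 0.3, limma adjusted p = 1). The next were Dnah7a (-0.34), Ift140 (0.33) and Ift172 (-0.28). The passing of Dnah1 and Rsph4a in vehicle pools and not in undecanal pools is therefore not shown to be a difference between agents. Deup1 had an interaction of 0.43 with a 95% interval from -0.72 to 1.57.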

How the data were processed

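Per the submitters' processing notes, the authors used Affymetrix Expression Console, and what they deposited is 1 log2 value per probe set and array. Which algorithm, version and annotation build they used is not given in the sources used here. Biotinylated cRNA came from 50 to 100 ng of total RNA, per the labels' protocols.

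Of 28846 rows, 6640 control rows were left out. Platform annotation gave 19572 of the 22206 probe sets 1 gene, 0 several and 2634 none, and all 43 genes matched RefSeq (GRCm38.p6) by identifier. One model of 4 group means was fitted to the 16 arrays with limma 3.58.1 (lmFit, eBayes) under R 4.3.3, with no block or filter, and with Benjamini-Hochberg adjustment over 22206 probe sets and a threshold of 0.05. The fit takes both fractions of a pool as separate samples.

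The 24 mice in groups of 3 make 8 pools, so arrays that share an agent and a number hold the same mice. Their deviations from the group means had r between 0.0709 and 0.373 (over 0.1 in 7 of 8 pools), so fits with a replicate block are printed where they change a call. The same number under the other agent does not pair mice (r from 0.003 to 0.329). The 17 alternatives cover scaling, background filtering, the prior variance, array weights, the samples fitted, the replicate block and leaving out each pool.

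Named genes were the members that passed, or else the 5 smallest p, with Deup1 always, the extremes of each class by mean, and up to 4 passing genes or else the 2 smallest p of each other list. Members, gene lists and rules were chosen with earlier results of these data known. Some listed genes, among them Arl6, Kif17 and Foxj1, were not matched to a probe set and not analysed here.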

Additional observations from a re-analysis of the deposited data

Results flagged for a closer look

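In 5 of 172 groups of 4 arrays, a single array stood apart from the other arrays of its group, where chance gives about 1 in 20 groups, or 8.6. Deup1 in vehicle titled GFP- read 5.97 in pool 4 and 6.90 to 6.97 in the others, and without that pool the fraction difference was -1.86 in place of -1.63. Rsph9 in vehicle titled GFP- read 12.53 in pool 2 and 13.13 to 13.23 in the others. Dnah6 in vehicle titled GFP+ read 2.07 in pool 1 and 2.58 to 2.66 in the others, all below background. Dnah11 in undecanal titled GFP+ read 11.86 in pool 4 and 11.97 to 11.99 in the others. Tctn3 in undecanal titled GFP- read 12.92 in pool 2 and 12.69 to 12.71 in the others. The 5 arrays came from 5 different pools, and the cause was not tested.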

How the results depend on the processing

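Counts of passing genes between fractions moved with the processing. Among the alternatives, counts over all probe sets are given only for median and mature neuron centring. The other counts are not read as results about the classes. In vehicle pools 0 transport genes passed, and 21 with median centring, 1 with quantile normalization, 2 with array weights, 1 with either replicate block, and 0 to 2 without single pools. The 2 motility genes became 14 with median centring, 1 with mature neuron centring, only probe sets above background or only the groups compared, and 1 to 3 without single pools. In undecanal pools 0 transport genes passed, and 19 with median centring, 1 with quantile normalization or with trend and robust eBayes, and 0 without single pools. The 0 motility genes became 12 with median centring, 2 with quantile normalization, 1 with only probe sets above background, trend and robust eBayes or either replicate block, and 0 to 1 without single pools. The random block used a consensus correlation of 0.167 between the fractions of a pool, and the block ended no call of the 43 genes. Over all probe sets 1138 passed as lower and 1959 as higher in vehicle pools, against 11231 and 1570 with median centring and 446 and 3179 with mature neuron centring. In undecanal pools these were 969 and 1960, 11129 and 1584, and 438 and 2794.

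Of values that did not pass, some changed sign. Dnah1 in undecanal pools was -0.33 with median centring and from -0.0551 to 0.15 without single pools. The undecanal effect on Deup1 ranged from -0.0458 to 0.48 in titled GFP+ and from -0.42 to 0.10 in titled GFP- without single pools. Cluap1 in vehicle pools was 0.0931 and Ropn1l in undecanal pools 0.007 with mature neuron centring, and Dnaaf3 and Sass6 in vehicle pools were -0.18 and -0.0432 with median centring. The cause was not tested. The counts for both undecanal effects and the interaction were 0 in limma in each alternative run.

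The deposited summaries, their scaling and the GFP labels set the limits. Titles and characteristics oppose each other, so the sign of fraction differences depends on which holds. S100a5, which drives the GFP, was higher in the arrays that the characteristics call GFP+. Probe sets near or below log2 4.80 have no reliable order, and 4 pools per group limit the precision of each gene to its own interval.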
